A study of Mus musculus with 6 samples.

Results

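The genes described here are 40 genes of the sarcomere and of muscle calcium handling, found by symbol among the 23361 genes of a table that compares cells sorted as satellite cells from 2 mouse genotypes. The labels give 6 samples, 3 AUF1-null (KO) and 3 wild type (WT). All came from hindlimb skeletal muscle of mice aged 4 months, from a colony crossed through C57BL/6 with a 129 background. After collagenase digestion, cells positive for Sdc4, a surface proteoglycan of satellite cells, were sorted, and their RNA was sequenced. AUF1 is the RNA-binding protein encoded by Hnrnpd; the sources used here give neither the deleted part of the gene nor the number of mice behind a sample. The authors' deposited table holds 1 pooled value per gene, on the FPKM scale (fragments scaled by transcript length and library size), for each of 2 conditions, named q2 and q1, and no label says which of them is AUF1-null. Every direction below compares q2 with q1 and names no genotype. Levels carry no SD or n, since sample-level values were not analysed here.

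Skeletal muscle contracts when myosin heads of the thick filament pull on actin of the thin filament. Calcium released from the sarcoplasmic reticulum through the ryanodine receptor binds troponin C and moves tropomyosin off the actin, and calcium pumps then return it to the store. Many of these proteins exist as fast, slow and developmental isoforms, each from its own gene, and their mix gives a fibre its type. Satellite cells lie beside the fibre, and these genes are expressed mainly after their descendants have differentiated and fused.

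The contractile genes lay almost without exception higher in q2, and none passed the authors' test. Of the 40 genes, 36 were tested and the other 4, Myh3, Myh8, Ryr1 and Ttn, were left untested by the authors. None was called (0 of 36) at the Cuffdiff q below 0.05 of the authors' deposited table, where 0.612% of all 14858 tested genes were called. The log2 fold change was above 0 in 35 of the 36, against 48.7% of all tested genes, and Atp2a2 was the exception. Their median log2 fold change was 0.70, or 1.63-fold, beside -0.01 over all tested genes. At an unadjusted Cuffdiff p below 0.05 there were 9 of the 36, or 25%, all of them higher in q2. Of all tested genes 5.99% passed that threshold in either direction, and 3.72% passed it and were higher in q2. Genes read from the same libraries are not independent of each other, so these counts are descriptions only. The summed level of the 40 genes was 6233 FPKM in q2 and 3783 FPKM in q1, which is 0.904% and 0.595% of the summed FPKM of the whole table. In bulk RNA, more cells that carry these transcripts and more transcript per cell cannot be told apart.

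**Figure D1:**
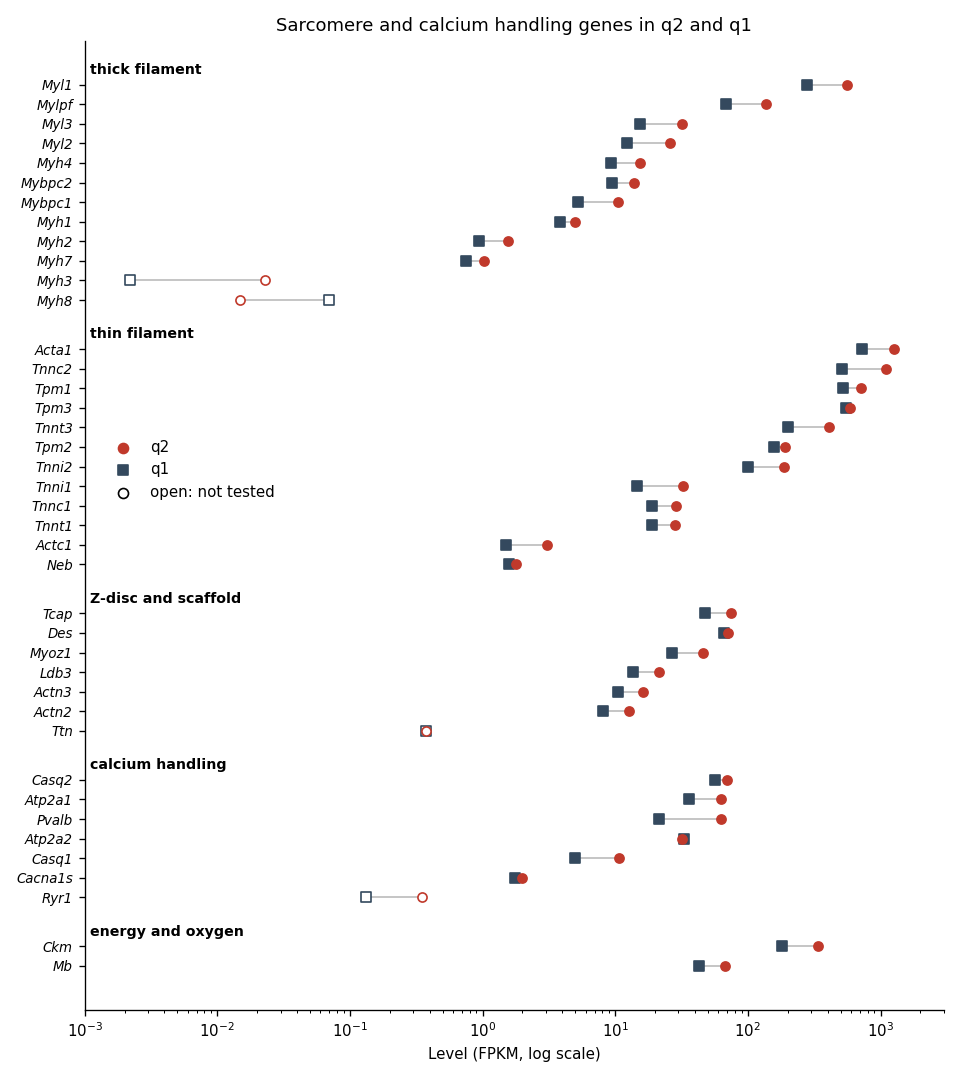
Levels of the 40 genes in q2 (red circles) and q1 (dark squares), in FPKM on a log axis, grouped by role and sorted by the q2 level. Each point is 1 pooled value with no error bar, open points mark the 4 genes that the authors did not test, and the q2 point lies right of the q1 point for every tested gene except Atp2a2.

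Among myosins, the fast light chains stood far above the heavy chains, and the slow light chains were closer to the highest of these. Myl1, the fast essential light chain, was listed at 563 FPKM in q2 and 277 FPKM in q1 of the authors' deposited table, with a log2 fold change of 1.02 (Cuffdiff p = 0.0142, q = 0.528). Mylpf, the fast regulatory light chain at chr7:127211608-127214287, was at 137 FPKM in q2 and 68.9 FPKM in q1 of the authors' deposited table, a log2 fold change of 0.99 (Cuffdiff p = 0.00705, q = 0.378). Both fast light chains were thus close to 2-fold higher in q2, without passing the adjustment. Their slow counterparts lay lower in level with a like difference. The authors' deposited table gives Myl3, the slow essential chain, 31.9 FPKM in q2 and 15.3 FPKM in q1 (Cuffdiff p = 0.0261, q = 0.668). Myl2, the slow regulatory chain, had 25.9 FPKM in q2 and 12.3 FPKM in q1 of the authors' deposited table (Cuffdiff p = 0.0650, q = 0.915).

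The heavy chains, the motor proteins themselves, were at most 15.4 FPKM. Myh4, the chain of the fastest fibres, was listed at 15.4 FPKM in q2 and 9.25 FPKM in q1 of the authors' deposited table (Cuffdiff p = 0.0523, q = 0.845). Myh1, of type IIx fibres, had 5.01 FPKM in q2 and 3.83 FPKM in q1 there. Myh2, of type IIa fibres, had 1.57 FPKM in q2 and 0.93 FPKM in q1, and Myh7, of slow fibres, 1.03 and 0.75 FPKM, by the authors' deposited table. Myh4 made up 66.9% of the summed FPKM of these 4 adult chains in q2 and 62.7% in q1, and Myh7 made up 4.50% and 5.07%, so the order Myh4, Myh1, Myh2, Myh7 was the same in both conditions. The heavy chain genes are close copies of each other, so reads may have been divided among them in a way that makes single values uncertain. The developmental chains of embryonic and newborn muscle were close to 0: the authors' deposited table lists Myh3 at 0.023 FPKM in q2 and 0.0022 FPKM in q1 and Myh8 at 0.015 FPKM in q2 and 0.069 FPKM in q1. Myosin-binding protein C, which brakes the heads on the thick filament, had its slow form Mybpc1 at 10.5 FPKM in q2 and 5.25 FPKM in q1 by the authors' deposited table (Cuffdiff p = 0.0160, q = 0.558). Its fast form Mybpc2 was at 13.8 FPKM in q2 and 9.52 FPKM in q1 of the authors' deposited table. Of the 12 thick filament genes, 10 were tested, all 10 had a log2 fold change above 0, and 4 lay at an unadjusted Cuffdiff p below 0.05.

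Thin filament genes held the highest levels. Acta1, the skeletal alpha-actin at chr8:123891758-123894775, was listed at 1262 FPKM in q2 and 723 FPKM in q1 of the authors' deposited table, with a log2 fold change of 0.80 (Cuffdiff p = 0.0894, q = 0.999). It ranked 76th of all 23361 genes in q2 and 122nd in q1. Tnnc2, the fast troponin C at chr2:164777162-164779734, was at 1101 FPKM in q2 and 517 FPKM in q1 of the authors' deposited table (Cuffdiff p = 0.0145, q = 0.535). Its rank was 92nd in q2 and 186th in q1. Tnnt3, the fast troponin T that ties the complex to tropomyosin, had 406 FPKM in q2 and 202 FPKM in q1 of the authors' deposited table (Cuffdiff p = 0.134). That table gives it the same position, chr7:142460812-142516009, as Lsp1, a leukocyte gene at 114 FPKM in q2 and 62.5 FPKM in q1, so the Tnnt3 value is less certain. Tnni2, the fast inhibitory subunit, had 188 FPKM in q2 and 99.996 FPKM in q1 of the authors' deposited table (Cuffdiff p = 0.0218, q = 0.624).

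The slow troponins were an order of magnitude lower for C and T, and less so for I. Tnni1, the slow inhibitory subunit, was at 32.6 FPKM in q2 and 14.6 FPKM in q1 of the authors' deposited table, a log2 fold change of 1.16 (Cuffdiff p = 0.0247, q = 0.657). Tnnc1, shared by slow and cardiac muscle, was at 28.9 FPKM in q2 and 18.9 FPKM in q1 and Tnnt1 at 28.1 and 18.8 FPKM there. All 6 troponins thus lay higher in q2, with a median log2 fold change of 0.96, and their summed level was 1785 FPKM in q2 and 871 FPKM in q1. The tropomyosins, which lie along the actin and are also made by many other cells, differed less. By the authors' deposited table Tpm1 was at 714 FPKM in q2 and 524 FPKM in q1, Tpm2 at 191 and 157 FPKM, and Tpm3 at 584 and 549 FPKM, with log2 fold changes of 0.45, 0.28 and 0.09. Actc1, the cardiac actin also made in developing skeletal muscle, was low, at 3.08 FPKM in q2 and 1.49 FPKM in q1 of the authors' deposited table. Neb, the giant ruler of the thin filament, was at 1.80 FPKM in q2 and 1.59 FPKM in q1 there.

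Among genes of the Z-disc and the scaffold, differences were moderate and none lay at an unadjusted Cuffdiff p below 0.05. Tcap, which caps titin at the Z-disc, was at 75.2 FPKM in q2 and 47.3 FPKM in q1 of the authors' deposited table, and Myoz1, a calcineurin-binding Z-disc protein of fast fibres, at 45.5 and 26.8 FPKM. The Z-disc crosslinkers Actn2 and Actn3 had 12.6 and 16.1 FPKM in q2 and 8.03 and 10.5 FPKM in q1 there, and Ldb3, a Z-disc adaptor, had 21.5 FPKM in q2 and 13.5 FPKM in q1. Log2 fold changes of these 5 genes ranged from 0.62 to 0.77. Des, the intermediate filament of all muscle cells, smooth muscle included, was listed at 71.4 FPKM in q2 and 66.3 FPKM in q1 of the authors' deposited table, a log2 fold change of 0.11. Ttn, the giant spring of the sarcomere, was untested, at 0.372 FPKM in q2 and 0.373 FPKM in q1.

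Calcium handling genes included the largest difference of any tested member. Pvalb, parvalbumin, a calcium buffer of fast fibres at chr15:78191118-78206351, was listed at 62.5 FPKM in q2 and 21.4 FPKM in q1 of the authors' deposited table. The difference is 2.91-fold, a log2 fold change of 1.54 in the authors' deposited table (p = 0.00095, q = 0.118 by Cuffdiff), with the smallest q among the 36 tested members. Casq1, the fast calsequestrin that stores calcium in the reticulum, was at 10.8 FPKM in q2 and 4.95 FPKM in q1 of the authors' deposited table (Cuffdiff p = 0.0217, q = 0.624). Its slow and cardiac form Casq2 was higher in level, at 69.6 FPKM in q2 and 57.0 FPKM in q1 of the authors' deposited table (Cuffdiff p = 0.437). Atp2a1, the fast calcium pump, had 62.8 FPKM in q2 and 36.1 FPKM in q1 of the authors' deposited table (Cuffdiff p = 0.0886). The table gives Atp2a1 the same position as Rabep2. Atp2a2, a pump of slow fibres and of most other cells, was at 31.7 FPKM in q2 and 33.2 FPKM in q1 of the authors' deposited table, a log2 fold change of -0.07. The voltage sensor of calcium release, Cacna1s, was low, at 1.97 FPKM in q2 and 1.75 FPKM in q1 of the authors' deposited table. The release channel Ryr1 was untested, at 0.350 FPKM in q2 and 0.131 FPKM in q1 there. Ckm, the muscle creatine kinase, and Mb, the oxygen store myoglobin, were at 337 and 67.8 FPKM in q2 and at 181 and 43.1 FPKM in q1 of the authors' deposited table (Cuffdiff p = 0.0795 and 0.102). The table gives Ckm one position with A930016O22Rik, at 64.0 FPKM in q2 and 32.6 FPKM in q1, and Mb one with Apol6. No source used here gives the strand setting, so reads of such partners may not be separated.

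By fibre type, fast genes lay higher in q2 by a median log2 fold change of 0.86 and slow genes by 0.60, with overlapping ranges. The 14 fast genes were all tested, ran from 0.39 for Myh1 to 1.54 for Pvalb, and 6 of them lay at an unadjusted Cuffdiff p below 0.05. The 10 slow genes ran from -0.07 for Atp2a2 to 1.16 for Tnni1, and 3 of them, Tnni1, Myl3 and Mybpc1, lay below that p. Of 13 genes shared by fibre types, 11 were tested, with a median of 0.65 and none below that p. Among the 3 developmental genes Actc1 alone was tested, at 1.05 (Cuffdiff p = 0.251 by the authors' deposited table). Summed levels were 2628 FPKM in q2 and 1288 FPKM in q1 for fast genes, and 844 and 725 FPKM for slow genes, where Tpm3 alone holds most of the sum. The 5 members that are also widely expressed outside striated muscle, Tpm1, Tpm2, Tpm3, Atp2a2 and Des, had a median of 0.11. The other 31 tested members had one of 0.77, all above 0. Tpm3, at 0.09, and Atp2a2, at -0.07, count as slow genes here and pull the slow median down. No widely expressed member counts as a fast gene, so the fast and slow medians compare classes of unlike make-up. All medians here are descriptions with no test of their difference.

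**Figure D2:**
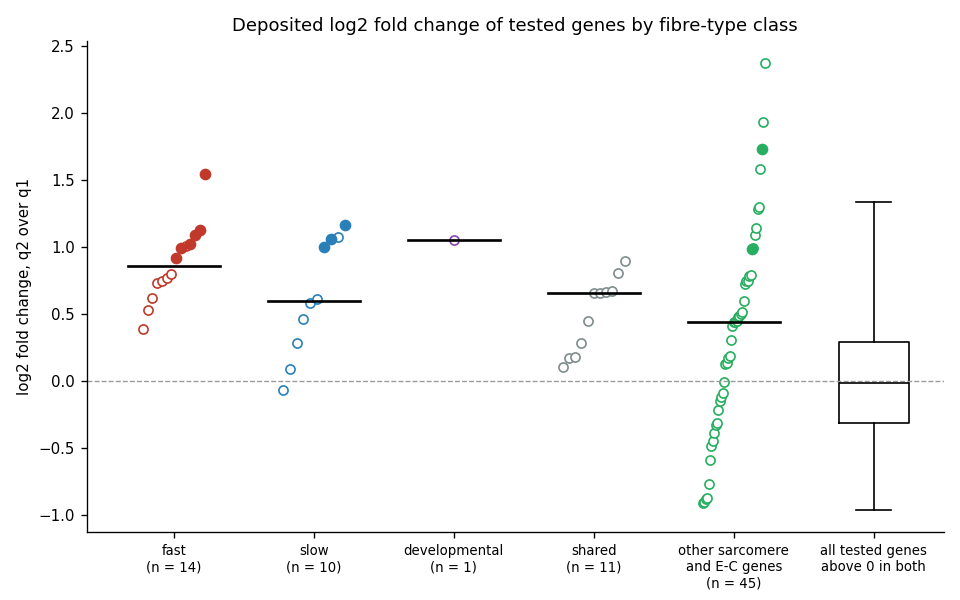
Deposited log2 fold change of q2 over q1 for each tested gene, by fibre-type class, for the other sarcomere and excitation-contraction (E-C) genes, and for all tested genes above 0 in both conditions. Bars are medians, filled points lie at an unadjusted Cuffdiff p below 0.05, and the box spans the middle 50% of genes with whiskers at the 5th and 95th percentiles; all fast genes and 9 of 10 slow genes lie above 0.

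Within isoform pairs, the fast gene was higher in level than the slow one in both conditions for 8 of 9 pairs, and q2 and q1 did not differ in one direction. The fast to slow ratio was larger in q2 for 5 pairs and smaller for 4. Tnnc2 exceeded Tnnc1 by 38.1-fold in q2 and by 27.3-fold in q1, the widest gap of the 9 pairs. For Myl1 over Myl3 the ratio was 17.6 in q2 and 18.1 in q1, for Mylpf over Myl2 5.29 and 5.59, and for Tnni2 over Tnni1 5.77 and 6.87. In these 3 pairs both members lay higher in q2 by like amounts. Mybpc2 over Mybpc1 was 1.31 in q2 and 1.81 in q1. The calcium pump pair had the larger ratio in q2, with Atp2a1 over Atp2a2 at 1.98 in q2 and 1.08 in q1. Atp2a2 is also widely expressed outside striated muscle, and Atp2a1 shares its position with Rabep2, so this ratio is a less certain measure of fibre type. The calsequestrins were the pair in which the slow gene was higher, Casq2 exceeding Casq1 by 6.46-fold in q2 and 11.5-fold in q1.

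**Figure D3:**
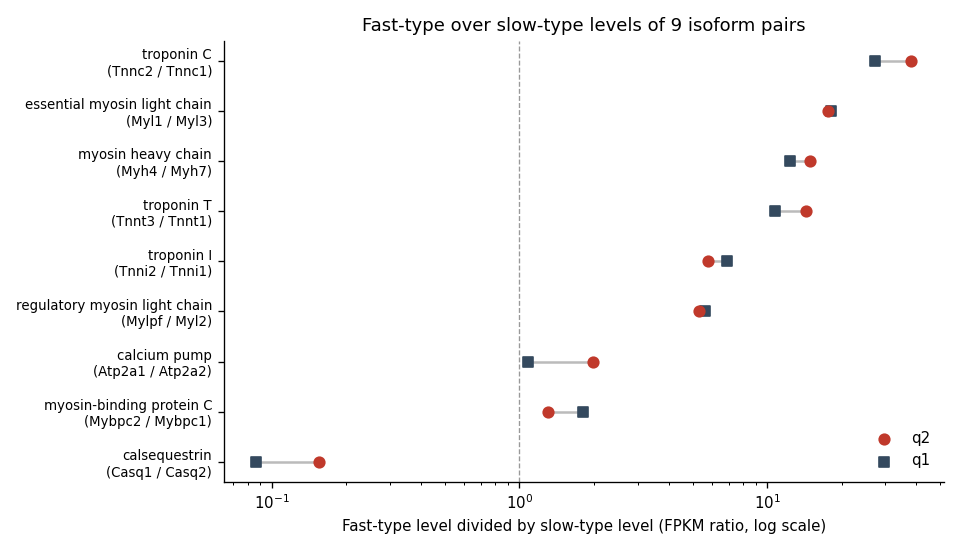
Ratio of fast-type to slow-type level (FPKM ratio, log axis) for 9 isoform pairs in q2 (red circles) and q1 (dark squares), 1 pooled value each with no error bar. Ratios lie right of 1 in both conditions except for calsequestrin, at 0.155 in q2 and 0.0869 in q1.

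Short transcripts differed more than long ones. Over the 36 tested members, the log2 fold change and the length of the longest annotated protein-coding transcript had a Spearman correlation of -0.57, given as a description over genes of the same libraries. The 8 members under 1 kb had a median log2 fold change of 1.02, and the 9 members of 1 to 2 kb had one of 1.004. For 11 members of 2 to 4 kb the median was 0.53, and for 7 members of 4 to 8 kb, the myosin heavy chains among them, it was 0.47. Neb, the single tested member of 8 kb or more, was at 0.18, and Ttn, untested, at -0.004. Levels also ran lower with length, with a Spearman correlation of -0.57 in q2 and -0.52 in q1. All tested genes showed a trend of the same sign with smaller size. Their median log2 fold change was 0.17 under 1 kb, 0.11 at 1 to 2 kb, 0.01 at 2 to 4 kb, -0.11 at 4 to 8 kb and -0.27 at 8 kb or more, and the correlation was -0.23 over 13076 genes with a length. In each of the 4 classes that hold at least 7 members, the members' median thus lay above that of all tested genes of the same length. RNA integrity per sample was not analysed here, and its part in this trend was not tested.

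**Figure D4:**
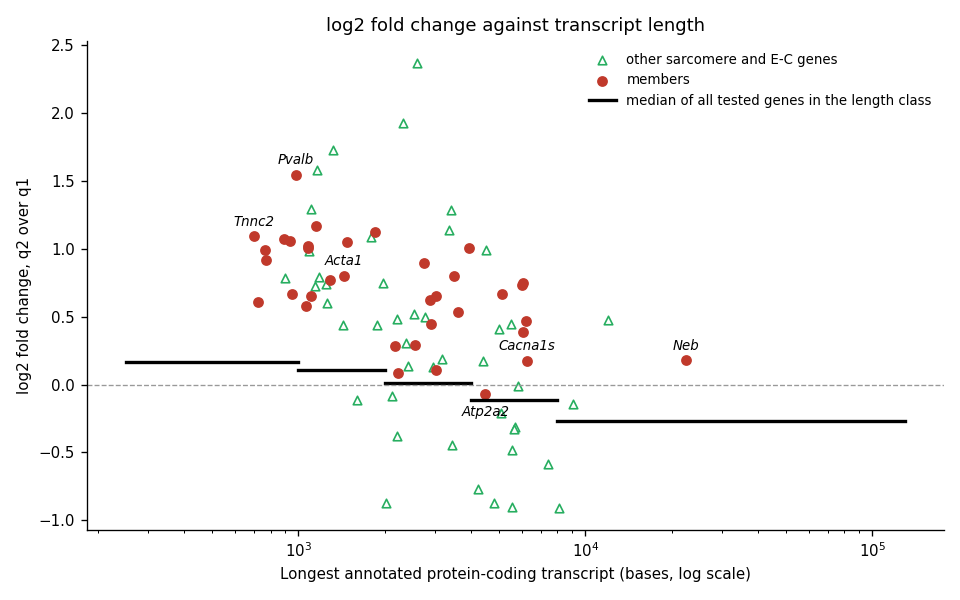
Log2 fold change of q2 over q1 against the length of the longest annotated protein-coding transcript (bases, log axis) for the tested members (filled circles) and the other sarcomere and excitation-contraction (E-C) genes (open triangles). Black bars are medians of all tested genes in 5 length classes, which run from 0.17 for the shortest to -0.27 for the longest.

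The wider sarcomere and excitation-contraction apparatus was less uniform. Of 50 further genes of these structures 45 were tested and 0 were called at a Cuffdiff q below 0.05 in the authors' deposited table, beside 0.612% of all tested genes. The log2 fold change was above 0 in 29 and below 0 in 16, with a median of 0.44. At an unadjusted Cuffdiff p below 0.05 there were 2 of the 45, or 4.44%, which is no more than the 5.99% of all tested genes. These were Sln, sarcolipin, an inhibitor of the calcium pump, at 30.1 FPKM in q2 and 9.08 FPKM in q1, and Smpx, a small muscle protein, at 20.8 FPKM in q2 and 10.5 FPKM in q1 of the authors' deposited table (Cuffdiff p = 0.0227 and 0.0465). The highest in level were Myot, a Z-disc protein, at 44.8 FPKM in q2 and 32.0 FPKM in q1, and Pdlim3, a Z-disc adaptor, at 35.1 and 38.0 FPKM there. Genes that lay lower in q2 included the M-band myomesins and the junctophilins that hold the reticulum to the T-tubule, chosen after their values were seen. Myom1 was at 6.84 FPKM in q2 and 8.59 FPKM in q1, Myom3 at 0.643 and 1.20 FPKM, Jph1 at 0.342 and 0.627 FPKM and Jph2 at 1.28 and 2.19 FPKM in the authors' deposited table, each with a Cuffdiff p above 0.05. Other excitation-contraction genes, chosen in the same way, lay higher in q2, each also with a Cuffdiff p above 0.05. Trdn was at 3.95 FPKM in q2 and 1.98 FPKM in q1 there. Cacnb1 was at 2.99 and 1.23 FPKM, and Jsrp1 at 3.05 and 1.24 FPKM. The 13 genes of 4 to 8 kb on this list had a median of -0.31, below the -0.11 of all tested genes of that length. The 13 genes of 1 to 2 kb had a median of 0.75, above the 0.11 of all tested genes of that length.

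Promoters of these genes held some muscle motifs more often than promoters at large. RefSeq promoter windows on GRCm38.p6, 250 bases before to 50 after a start, were matched for 33 of the 40 members by symbol, giving 41 windows, since some genes have several starts. A CArG box, the site of serum response factor, occurred in 6 of the 41 windows, or 14.6%, against 1.63% of all 32851 windows of the same length. These 6 windows belong to Acta1, Actc1, Ldb3, Myh4 and Myl3, and Ldb3 gives more than 1 of them. Windows of the same gene are not independent. A MEF2 site occurred in 14.6% against 3.19%, the MCAT core CATTCC in 26.8% against 14.7%, the hexamer TATAAA on the gene's strand in 17.1% against 8.32%, and the E-box CANNTG in 85.4% against 72.3%. All motifs but TATAAA were sought on both strands, and no matches of different motifs overlapped in the members' windows. A match is a run of letters and not a site shown to be bound. The 4 tested members with 1 window and a CArG box are shown to give the letters of that motif in 2 actins, a light chain and a heavy chain. They were chosen for the motif, and nearly all tested members lay higher in q2 with or without it. Each is given 5' to 3' on the gene's strand, for the 120 bases before the start, with the CArG box in capitals, from Acta1 on the minus strand at chr8:123894776-123894895, Myl3 on the plus strand at chr9:110763558-110763677, Myh4 on the plus strand at chr11:67237692-67237811 and Actc1 on the minus strand at chr2:114052876-114052995 (GRCm38.p6).
Acta1: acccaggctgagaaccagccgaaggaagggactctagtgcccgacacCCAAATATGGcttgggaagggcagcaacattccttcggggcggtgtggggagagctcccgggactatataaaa
Myl3: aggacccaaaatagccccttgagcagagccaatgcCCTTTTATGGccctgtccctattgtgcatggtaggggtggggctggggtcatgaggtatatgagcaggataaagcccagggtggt
Myh4: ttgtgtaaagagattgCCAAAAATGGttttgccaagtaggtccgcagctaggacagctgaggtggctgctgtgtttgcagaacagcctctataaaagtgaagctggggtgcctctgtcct
Actc1: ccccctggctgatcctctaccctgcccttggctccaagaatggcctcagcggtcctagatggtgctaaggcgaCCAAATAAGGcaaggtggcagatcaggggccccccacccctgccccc

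The CArG box begins 73 bases before the start in Acta1, 85 in Myl3, 104 in Myh4 and 47 in Actc1. Pvalb, with the largest difference, had a MEF2 site in 1 of its windows and no CArG box, and the next in size, Tnni1, Casq1 and Tnnc2, had only the E-box among these motifs.

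Markers of other cells were present, and their lists did not share one direction. The marker lists were chosen with earlier results of these data known, so their counts are descriptions only. Of 10 neutrophil markers 9 were called higher in q2 in the authors' deposited table, where 0.612% of all tested genes were called. Their summed level was 15473 FPKM in q2 and 1189 FPKM in q1, with none at 0. All 8 endothelial markers lay lower in q2, with none called and sums of 14340 FPKM in q2 and 17065 FPKM in q1. Fabp4 alone made up most of both sums, at 12031.5 FPKM in q2 and 14386 FPKM in q1 of the authors' deposited table. Of 10 smooth muscle and pericyte markers 3 lay above and 7 below 0, none was called, and the summed level was 4676 FPKM in q2 and 3634 FPKM in q1. Rgs5, a pericyte gene, made up most of that sum, at 3553 FPKM in q2 and 2279 FPKM in q1, while Acta2 and Myh11 of smooth muscle were at 428 and 95.2 FPKM in q2 and at 465 and 127 FPKM in q1 of the authors' deposited table. Cardiac muscle markers were low, with a summed level of 11.8 FPKM in q2 and 12.8 FPKM in q1 over 9 genes, Nppb at 0 in both conditions and Myl7 at 0 in q2. The 10 satellite cell markers had a median log2 fold change of 0.18, with 6 above and 4 below 0, none called and a summed level of 405 FPKM in q2 and 328 FPKM in q1. One of them, the chemokine receptor gene Cxcr4, lay at an unadjusted Cuffdiff p below 0.05, at 18.8 FPKM in q2 and 9.78 FPKM in q1 of the authors' deposited table (Cuffdiff p = 0.0230, q = 0.632). The sorting marker Sdc4 was at 269.7 FPKM in q2 and 173 FPKM in q1 there, a log2 fold change of 0.64. Sdc4 alone made up most of both satellite cell sums, and the remaining markers together summed lower in q2 than in q1. Pax7, the defining factor of satellite cells, was at 0.854 FPKM in q2 and 1.16 FPKM in q1 of the authors' deposited table, below 36 of the 40 contractile genes in q2 and below 34 of them in q1. The part of these other cells in the difference of the contractile genes was not tested. Hnrnpd itself was at 5.59 FPKM in q2 and 7.50 FPKM in q1 of the authors' deposited table (p = 0.291, q = 0.999 by Cuffdiff) and does not tell the conditions apart.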

How the data were processed

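RNA was sequenced from 3 AUF1-null and 3 wild-type samples. The submitters' processing notes name TopHat2 (2.0.9), Cufflinks (2.2.1) and the mm9 build. The positions in the table are nonetheless those of GRCm38: all 40 members overlap their RefSeq gene there, 32 with a start within 100 bases. Positions are printed 1-based, with 1 added to the start column. Per the file headers, which follow the layout of Cuffdiff, the authors deposited 1 value per gene and condition, with replicates pooled; the headings name no unit, and the FPKM scale is the one Cuffdiff writes. They also deposited a log2 fold change of q2 over q1, a test statistic (a score, not used here), and a p-value with a q-value. The sources used here give no annotation, normalization, strand or depth per sample, so no counting interval is printed. The labels do not say whether samples came from separate mice, so the authors' p-values may measure technical spread only.

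A gene counted as tested with status OK (14858 genes; 8499 were NOTEST and 4 HIDATA) and as called at a deposited q below 0.05, adjusted over all tested genes. No test between samples was run. Summaries were computed with Python 3.11.15 and pandas 2.3.3. Lengths came from GENCODE vM21, and promoter sequences from RefSeq. Readjustment of p-values was tested on simulated data. Members, fibre-type classes, marker lists, isoform pairs and the printed promoters were chosen with earlier results of these data known. Values were printed for members called, at an unadjusted p below 0.05, or highest in level in their role or class, and for the others by the same table. The other list is named by the same p and by its 2 highest levels. Alternatives covered q and p thresholds, a 1 FPKM minimum, a 2-fold minimum, pseudocounts of 0.1 and 1 FPKM, centring, untested genes and widely expressed members.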

Additional observations from a re-analysis of the deposited data

How the results depend on the processing

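Of 47 alternative values for 10 results, 45 stayed within 1.5 times the reported value and kept its sign. The 0 calls among the members and among the other sarcomere genes stayed at 0 at a q below 0.10 and with a 1 FPKM minimum. At an unadjusted p below 0.01, 2 members were left, Pvalb and Mylpf, in place of 9. The median log2 fold change of the other sarcomere and excitation-contraction genes was 0.29 with a pseudocount of 1 FPKM, against 0.44, since most of them are low. The members' median lay between 0.65 and 0.77 under every alternative tried, and centring moved it by 0.01. No paired analysis was possible because the deposited table holds 1 pooled value per condition; leaving out a replicate was not run for the same reason. With no depth or replicate values, a difference of a low gene such as Ryr1 or Myh3 cannot be weighed.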

Other observations

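Muscle-type metabolic enzymes, which share the fibre but not the sarcomere with these genes, lay to the same side. All 6 were tested, and all 6 had a log2 fold change above 0, against 48.7% of all tested genes. The median was 0.96, and 0 were called in the authors' deposited table, where 0.612% of all tested genes were called. No rule for choosing these 6 genes is given, and the counts are descriptions only. Pgam2, the muscle phosphoglycerate mutase of glycolysis, was at 109 FPKM in q2 and 56.2 FPKM in q1 of the authors' deposited table (Cuffdiff p = 0.0136, q = 0.518). Eno3, the muscle enolase, was at 130.5 FPKM in q2 and 77.6 FPKM in q1, and Pygm, the muscle glycogen phosphorylase, at 36.9 and 25.8 FPKM in the authors' deposited table. The muscle forms of cytochrome oxidase subunits, Cox6a2 and Cox7a1, were at 48.0 and 63.2 FPKM in q2 and at 24.7 and 28.0 FPKM in q1 there. Ampd1, the muscle AMP deaminase, was low, at 2.24 FPKM in q2 and 0.915 FPKM in q1 of the authors' deposited table.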
